A study of Homo sapiens with 6 samples.

Results

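The genes described here encode the enzymes that methylate lysine 9 of histone H3 (H3K9), the corepressor TRIM28, and the HP1 proteins that bind the mark. The members were 10 genes chosen by name: SUV39H1, SUV39H2, EHMT1, EHMT2, SETDB1, SETDB2, CBX1, CBX3, CBX5 and TRIM28. The platform's gene table used here paired 9 of them with a probe set, 1 each, among 17687 genes in all, and CBX5 was not analysed here. The samples were Jurkat cells, an established human line from T cell acute lymphoblastic leukaemia (T-ALL), in RPMI medium with fetal bovine serum. For 3 arrays the cells were mixed into bovine type I collagen at 1.7 mg/mL, which set around them, and were kept there for 3 h in all (called 3D here). For the other 3 arrays the cells stayed in suspension for 3 h. No gene was altered and no drug was given in either group, and both groups are this 1 cell line. Biological replicates, 3 to a group, are named in the labels with no word on what separated them, so p-values measure the spread between these samples.

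Methylation of H3K9 is a mark of silent chromatin. SUV39H1 and SUV39H2 place the trimethyl mark at heterochromatin around centromeres, and EHMT2 (G9a) with EHMT1 (GLP) form a dimer that places the mono- and dimethyl marks at genes. SETDB1 trimethylates H3K9 at retroelements, where TRIM28 brings it after KRAB zinc finger proteins bind the DNA, and the HP1 proteins read the mark through a chromodomain. The arrays measured RNA of these genes, not the mark or the proteins.

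Expression values are the deposited log2 values of probe sets, and a difference is the mean of the 3D arrays minus the mean of the suspension arrays. A difference of 1 is a 2-fold change. Array medians lay between 5.55 and 5.64. Over all genes, 42.8% of the variance lay on principal component 1, with 3D replicate 3 (score 29.2) and suspension replicate 1 (score -40.4) at its ends. All 11 T cell markers listed were measured, with means from 6.45 to 11.32. Of 24 measured markers of B, myeloid, NK, stromal, epithelial and erythroid cells, 20 had means under 6. The other 4 were CD79A, COL1A2, KRT8 and HBA1. The T cell markers had a median difference of -0.25, with 9 of 11 lower in 3D, and 0 passed limma. The medians of the other marker lists lay between -0.19 and 0.10. The part of these markers in the results below was not tested.

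None of the 9 measured members passed the test between 3D and suspension cells. Limma, a linear model that shares the spread between genes, gave adjusted p-values from 0.425 for SETDB2 to 0.987 for EHMT1, with Benjamini-Hochberg adjustment over all 17687 genes. The threshold of 0.05 was passed by 0% of all genes, where the smallest adjusted p was 0.293. At an unadjusted p under 0.05, 2 members, SETDB2 and SUV39H2, were higher in 3D, against 5.9% of all genes. In the lower direction there was no member at that level, against 3.97% of all genes. Without 3D replicate 3 the count of 2 fell to 0 (unadjusted p 0.0886 for SETDB2 and 0.119 for SUV39H2). SUV39H2 also missed 0.05 without 3D replicate 2 (0.123), suspension replicate 1 (0.0866) or suspension replicate 2 (0.104), and after quantile normalization once more (0.0704). These 2 were also the members whose groups did not overlap, where 8.28% of all genes lay higher and 8.03% lower without overlap. The median difference of the 9 members was 0.057, beside -0.016 for all genes, with 5 members above 0 and 4 below, while 47.4% of all genes lay above 0. In bulk RNA, fewer cells that express a gene and less RNA per cell cannot be told apart.

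**Figure D1:**
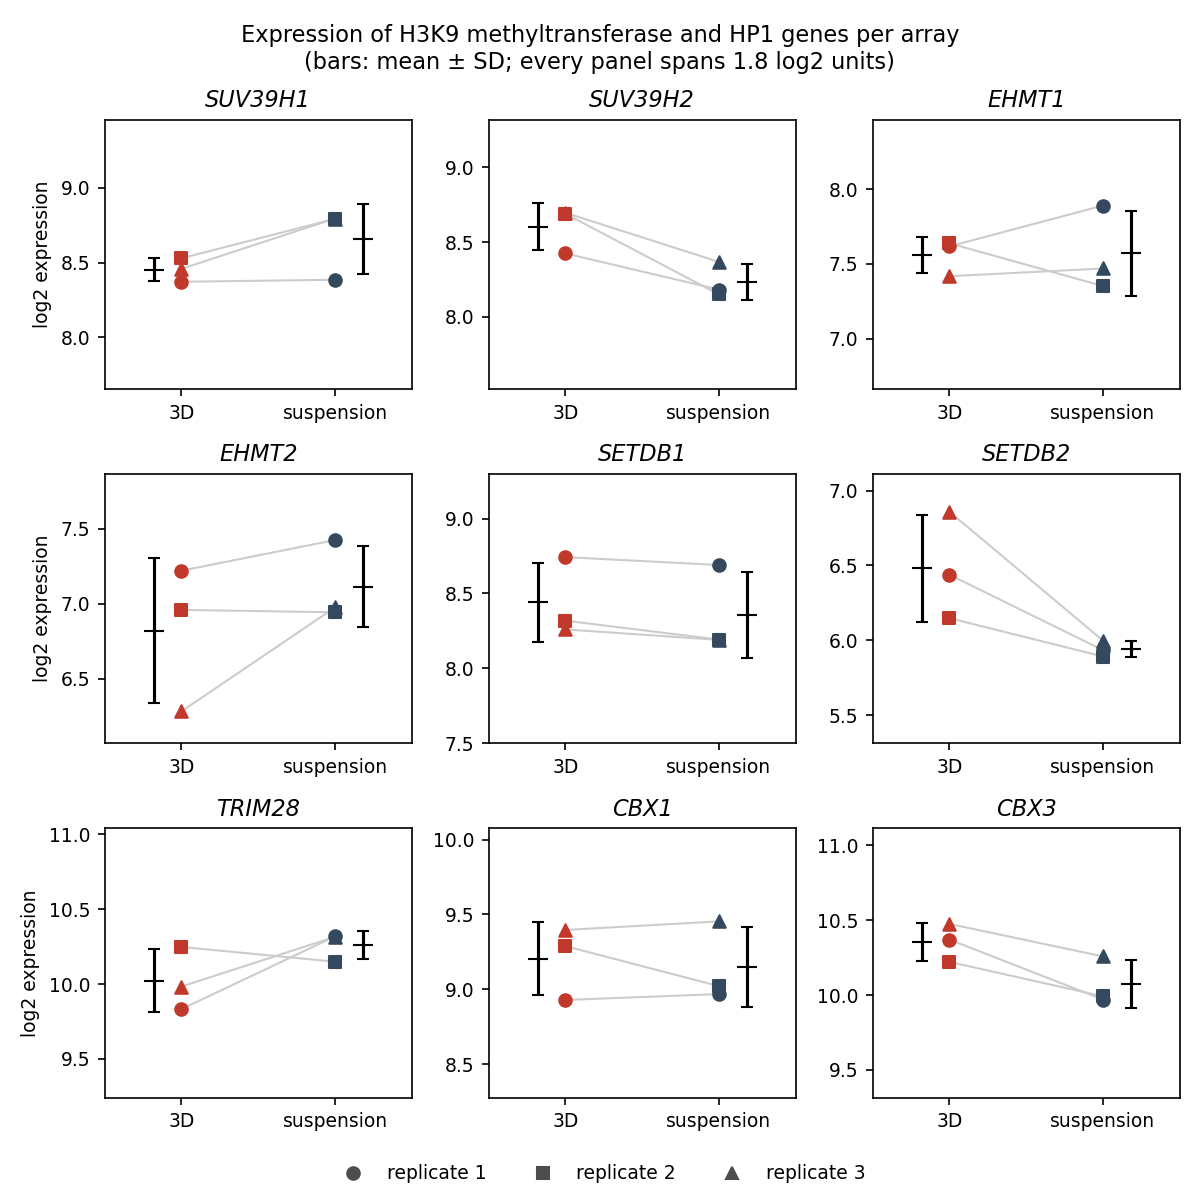
Log2 expression of the 9 measured members (vertical axes, each spanning the same width) in the 3D and suspension arrays, with 1 point per array, grey lines joining arrays of the same replicate number, and bars for mean ± SD (n = 3). SUV39H2 and SETDB2 are the members whose 3D points all lie above the suspension points.

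The promoters of SUV39H2 and SETDB2 are shown because these members' groups did not overlap. They are the 250 bases before the RefSeq start of each gene (GRCh38.p14, plus strand), printed 5′ to 3′. Capitals mark matches on either strand to 5 motifs. These were the cAMP response element (TGACGTCA), the GC box (GGGCGG), the E2F motif (TTTGGCGC), the E-box (CACGTG) and the CCAAT box, searched by the 5 letters of its name. No matches of different motifs overlapped in the windows printed. The windows are chr10:14878616-14878865 for SUV39H2 and chr13:49444024-49444273 for SETDB2.
SUV39H2: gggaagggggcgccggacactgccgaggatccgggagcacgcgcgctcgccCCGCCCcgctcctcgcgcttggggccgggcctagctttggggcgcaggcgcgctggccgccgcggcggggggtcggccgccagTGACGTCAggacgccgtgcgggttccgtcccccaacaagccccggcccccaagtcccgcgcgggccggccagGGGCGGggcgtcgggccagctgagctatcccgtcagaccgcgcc
SETDB2: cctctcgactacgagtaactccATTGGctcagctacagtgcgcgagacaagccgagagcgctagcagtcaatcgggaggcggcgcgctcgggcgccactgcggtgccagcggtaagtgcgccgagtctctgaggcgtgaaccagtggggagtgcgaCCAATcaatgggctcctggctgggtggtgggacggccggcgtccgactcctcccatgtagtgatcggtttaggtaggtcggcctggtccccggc

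The marked motifs differed between these 2 promoters. SUV39H2 held 1 cAMP response element and 2 GC boxes, and SETDB2 held 2 CCAAT boxes and none of the others. Among 35116 promoter windows of the same length in the RefSeq table, 1.65% held the cAMP response element, 42.64% a GC box and 32.01% a CCAAT box. The E-box stood in 6.34% of windows and the E2F motif in 0.55%. Of the measured members, 8 matched the table, with 10 windows. The CCAAT box stood in SETDB2 and SUV39H1, the E-box in EHMT2 and SETDB1, and the E2F motif in none of the 10. The SUV39H2 window was 79.6% G and C with 38 CpG, and that of SETDB2 was 65.2% with 25 CpG, beside medians of 58% and 11 over all windows. A match is a description of the letters and not evidence of binding.

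Among the enzymes of pericentromeric heterochromatin, SUV39H2 was higher in 3D while its paralogue SUV39H1 had differences below 0 in each replicate number, and neither passed the test. SUV39H2 measured 8.42, 8.69 and 8.70 in 3D replicates 1, 2 and 3, against 8.18, 8.15 and 8.37 in suspension replicates 1, 2 and 3. Every 3D array lay above every suspension array. The difference was 0.37 ± 0.16 (SE), or 1.29-fold, with a 95% interval from 0.014 to 0.72 and an adjusted p of 0.501 (limma). SUV39H1 measured 8.37, 8.53 and 8.46 in 3D, against 8.38, 8.79 and 8.79 in suspension. Suspension replicate 1 fell within the range of the 3D arrays, so the groups overlapped. The SUV39H1 difference was -0.20 ± 0.17 (SE), with a 95% interval from -0.58 to 0.17 and an adjusted p of 0.699. The log2 ratio of SUV39H2 to SUV39H1 within an array, which shows unequal change and not absolute levels, was 0.052, 0.16 and 0.24 in 3D, against -0.20, -0.64 and -0.43 in suspension. The 3D ratios lay above all suspension ratios. It was chosen with the values known and given no test; an exact permutation test of 3 against 3 arrays cannot give a p below 0.1.

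The G9a and GLP genes had wide spreads and no difference past the test. EHMT2 measured 7.22, 6.96 and 6.28 in 3D, against 7.43, 6.94 and 6.98 in suspension. Its range over the 6 arrays, 1.14, was the widest of the 9 members, and the lowest value was that of 3D replicate 3. The difference was -0.29 ± 0.24 (SE), with a 95% interval from -0.83 to 0.24 and an adjusted p of 0.697 (limma). Without 3D replicate 3 it was -0.025, and without 3D replicate 1 it was -0.49. EHMT1 measured 7.62, 7.64 and 7.42 in 3D, against 7.89, 7.35 and 7.47 in suspension. These values overlapped throughout, with a difference of -0.013 ± 0.18 (SE) and a 95% interval from -0.41 to 0.39. The ratio of EHMT2 to EHMT1 was -0.40, -0.68 and -1.14 in 3D, against -0.46, -0.41 and -0.49 in suspension, and the groups overlapped.

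SETDB2 had the largest difference of the members, on a dim probe set. The gene encodes a relative of SETDB1 with a SET domain. It measured 6.44, 6.15 and 6.86 in 3D, against 5.93, 5.89 and 5.998 in suspension. All 3D arrays lay above all suspension arrays, and the 3D arrays were spread more widely (SD 0.36, against 0.054 in suspension). The difference was 0.54 ± 0.19 (SE), or 1.45-fold, with a 95% interval from 0.11 to 0.97 and an adjusted p of 0.425 (limma). It was 0.35 without 3D replicate 3 and 0.71 without 3D replicate 2. Its mean over the 6 arrays, 6.21, lay under 6.84, the 90th percentile of the 24 measured markers of other cell types, so whether it was above background is uncertain. SETDB1 measured 8.74, 8.32 and 8.26 in 3D, against 8.69, 8.19 and 8.19 in suspension. Replicate 1 was the highest array in both groups, and the 3D array was above the suspension array of the same number in all 3, by 0.053, 0.13 and 0.070. The SETDB1 difference was 0.083 ± 0.20 (SE), with a 95% interval from -0.36 to 0.53 and an adjusted p of 0.908. The ratio of SETDB2 to SETDB1 was -2.30, -2.17 and -1.40 in 3D, against -2.76, -2.30 and -2.19 in suspension, and these overlapped.

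TRIM28, the corepressor that recruits SETDB1, measured 9.83, 10.25 and 9.98 in 3D, against 10.32, 10.15 and 10.32 in suspension. Only 3D replicate 2 reached into the suspension range. The difference was -0.24 ± 0.17 (SE), or 0.85-fold, with a 95% interval from -0.61 to 0.13 and an adjusted p of 0.636 (limma).

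The HP1 genes were described by CBX3 (HP1 gamma) and CBX1 (HP1 beta). CBX3 measured 10.37, 10.22 and 10.48 in 3D, against 9.97, 9.99 and 10.26 in suspension. Suspension replicate 3 lay above 3D replicate 2, so the groups overlapped, but the 3D array was the higher one in each replicate number. The difference was 0.28 ± 0.16 (SE), or 1.22-fold, with a 95% interval from -0.076 to 0.64 and an adjusted p of 0.580 (limma). CBX1 measured 8.93, 9.29 and 9.40 in 3D, against 8.97, 9.02 and 9.45 in suspension. Replicate 1 was the lowest and replicate 3 the highest in both groups, and the difference was 0.057 ± 0.19 (SE), with a 95% interval from -0.37 to 0.48. The ratio of CBX3 to CBX1 was 1.44, 0.93 and 1.08 in 3D, against 1.00, 0.97 and 0.80 in suspension, with overlap.

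**Figure D2:**
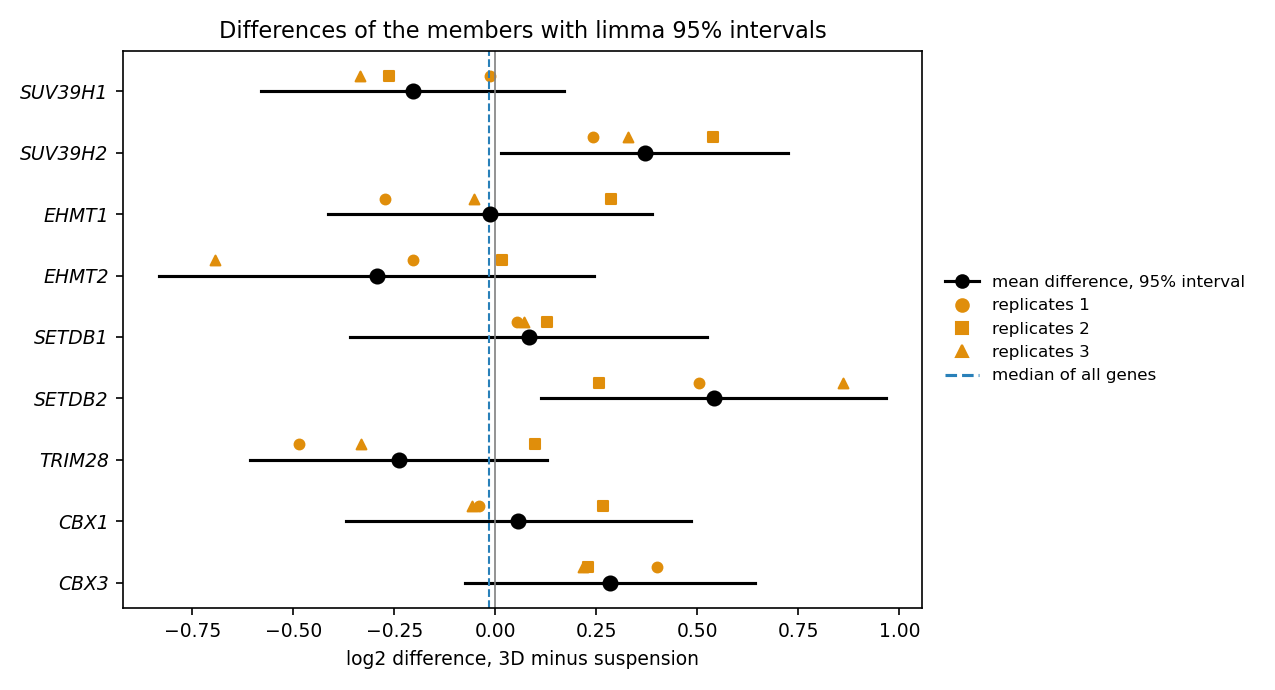
Log2 difference (3D minus suspension, horizontal axis) of each member, with black points for the mean difference and bars for limma's 95% interval. Coloured points are differences between arrays of the same replicate number, and a dashed line marks the median of all genes. The intervals of SUV39H2 (0.014 to 0.72) and SETDB2 (0.11 to 0.97) lie above 0 before adjustment with all 6 arrays, and those of the other 7 members span it.

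By replicate number, 4 members were higher in 3D in all 3 (SUV39H2, SETDB1, SETDB2 and CBX3) and 1 was lower in all 3 (SUV39H1). Of all genes, 20.3% were higher in all 3 and 19.8% were lower in all 3. For EHMT2, TRIM28, EHMT1 and CBX1 the difference of replicate 2 was above 0 (0.016, 0.099, 0.29 and 0.27) and those of replicates 1 and 3 were below 0. The median of all genes had the same signs, at -0.039, 0.054 and -0.035 for replicates 1, 2 and 3. How many genes share this pattern was not counted. With the replicate number as a block, 16 of 17687 genes (0.0905%) passed limma, and no member was among them (adjusted p 0.134 for SETDB2, 0.237 for SUV39H2 and 0.343 for CBX3). With the block and only the 8342 genes of mean at or above 6, 10.6% of genes passed as higher and 3.78% as lower. SETDB2 was then the member that passed (adjusted p 0.0136), and SUV39H2 had an adjusted p of 0.0680. SETDB2 had a suspension mean of 5.94 and entered that set through its 3D arrays, so this call is no support for a difference.

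RNA of genes of cell division and DNA replication varies with the cell cycle, and lists of these genes were set beside the members. The list of 20 G2 and mitosis genes had medians of 8.62, 9.46 and 9.58 in 3D replicates 1, 2 and 3, against 8.26, 9.10 and 9.41 in suspension. Its median difference was 0.23, with 16 of 20 above 0 and none passing. The median turned to -0.11 without suspension replicate 1 and was 0.028 without 3D replicate 3 and 0.13 without 3D replicate 2. It reached 0.55 when 3D replicate 1 was left out, 0.47 when suspension replicate 3 was, and 0.36 when suspension replicate 2 was. CCNA2, the cyclin A2 gene, had a difference of 0.38 ± 0.21 (SE), and KIF11, a spindle motor gene, 0.48 ± 0.30. The list of 20 S phase genes had a median difference of 0.035, with 11 above 0, and from -0.025 to 0.097 over the alternatives. POLA1, a DNA polymerase subunit gene, had 0.75 ± 0.16 (adjusted p 0.330, limma) and MCM2, a helicase subunit, -0.32 ± 0.15. Replicate 1 was thus lowest for G2 and mitosis genes in both groups, as it was for CBX1 and SUV39H1. It was instead the highest in both groups for SETDB1 and EHMT2. For the remaining members it was neither lowest in both groups nor highest in both. The part of the cell cycle in the members' values was not tested.

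Partners of SETDB1, TRIM28 and the HUSH complex, which silences integrated and repeated DNA through SETDB1, lay mostly above 0. The median difference of the 9 partners was 0.31, with 8 above 0 and 0 passing limma, where 47.4% of all genes lay above 0. By replicate number the median was 0.35, 0.27 and 0.29. MPHOSPH8, MORC2 and ATF7IP2 had means of 5.13, 5.71 and 6.29, under 6.84, the 90th percentile of the markers of other cell types. Whether these partners were above background is uncertain. ZNF638, a DNA-binding protein that works with HUSH, measured 7.31 ± 0.040 in 3D and 6.65 ± 0.43 in suspension (SD, n = 3 each). Its difference was 0.67 ± 0.21 (SE), with an adjusted p of 0.399. ATF7IP, the SETDB1 partner that stabilises the enzyme, had 0.31 ± 0.16, and SMARCAD1, a remodeller bound by TRIM28, had 0.39 ± 0.19. At an unadjusted p under 0.05 there was 1 partner of 9, against 5.9% of all genes in that direction.

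KRAB zinc finger genes, whose proteins call on TRIM28, had a median difference of 0.12 over 23 of 24 listed, with 15 above 0 and 0 passing limma. At an unadjusted p under 0.05, 6 of 23 were higher and 0 lower, against 5.9% and 3.97% of all genes. The median was 0.025 without suspension replicate 1, 0.22 without 3D replicate 1 or suspension replicate 2, and 0.36 for the genes of mean at or above 6. ZNF33A had a difference of 0.58 ± 0.15 (SE, adjusted p 0.359, limma), ZNF91 0.76 ± 0.24, ZNF189 0.53 ± 0.17 and ZNF431 0.55 ± 0.19. These genes belong to families of similar sequence, so which copy gave a signal is uncertain. Partners of G9a and GLP had a median of -0.020 over 7 genes, with 3 above 0. REST, a repressor that recruits G9a, had 0.30 ± 0.16 and ZNF644 had 0.47 ± 0.25, with overlapping groups for ZNF644. WIZ, a zinc finger subunit of the G9a and GLP complex, had -0.19 ± 0.16. The 5 PRDM family genes had a median of -0.096, with 2 above 0, and MECOM had the smallest p (-0.16 ± 0.17). Their median level was 4.03 and that of MECOM 5.05, under 6.84, the 90th percentile of the markers of other cell types. Whether most of them were above background is thus uncertain. The G9a and GLP median ran from -0.10 without 3D replicate 1 to -0.0081 without 3D replicate 3, and the PRDM median from -0.16 to 0.038 with the higher end without 3D replicate 1.

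Genes that remove the mark and genes that work with HP1 showed both directions. The 10 measured H3K9 demethylase genes of 11 listed had a median difference of 0.12, with 6 above 0 and 0 passing limma. Without suspension replicate 1 this median turned to -0.037. JMJD1C measured 8.56 ± 0.11 in 3D and 8.08 ± 0.092 in suspension (SD, n = 3 each), a difference of 0.49 ± 0.15 (SE, adjusted p 0.399, limma). KDM4B measured 5.29 ± 0.13 in 3D and 5.81 ± 0.18 in suspension (SD, n = 3 each), a difference of -0.52 ± 0.17 (SE, adjusted p 0.399, limma). Neither pair of groups overlapped. KDM4B had a mean of 5.55, under 6.84, the 90th percentile of the markers of other cell types. Whether KDM4B was above background is thus uncertain. The 17 HP1 partners had a median of 0.19, with 10 above 0, led by SENP7, a SUMO protease that binds HP1 (0.71 ± 0.21, adjusted p 0.380, limma), and NIPBL, the cohesin loader (0.54 ± 0.22). Their median was 0.044 without suspension replicate 1, 0.095 without 3D replicate 2, 0.12 without 3D replicate 3 and 0.13 without suspension replicate 3. The 14 measured of 16 genes of DNA methylation and heterochromatin had a median of 0.11, with 9 above 0. It was 0.025 without suspension replicate 2, 0.071 without 3D replicate 2 and 0.22 without 3D replicate 3. HELLS, a remodeller needed for DNA methylation, measured 9.46 ± 0.11 in 3D and 8.82 ± 0.21 in suspension (SD, n = 3 each), and TRIM24 and TRIM33, relatives of TRIM28, had differences of 0.63 ± 0.23 and 0.42 ± 0.16. None of the genes named here passed limma.

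**Figure D3:**
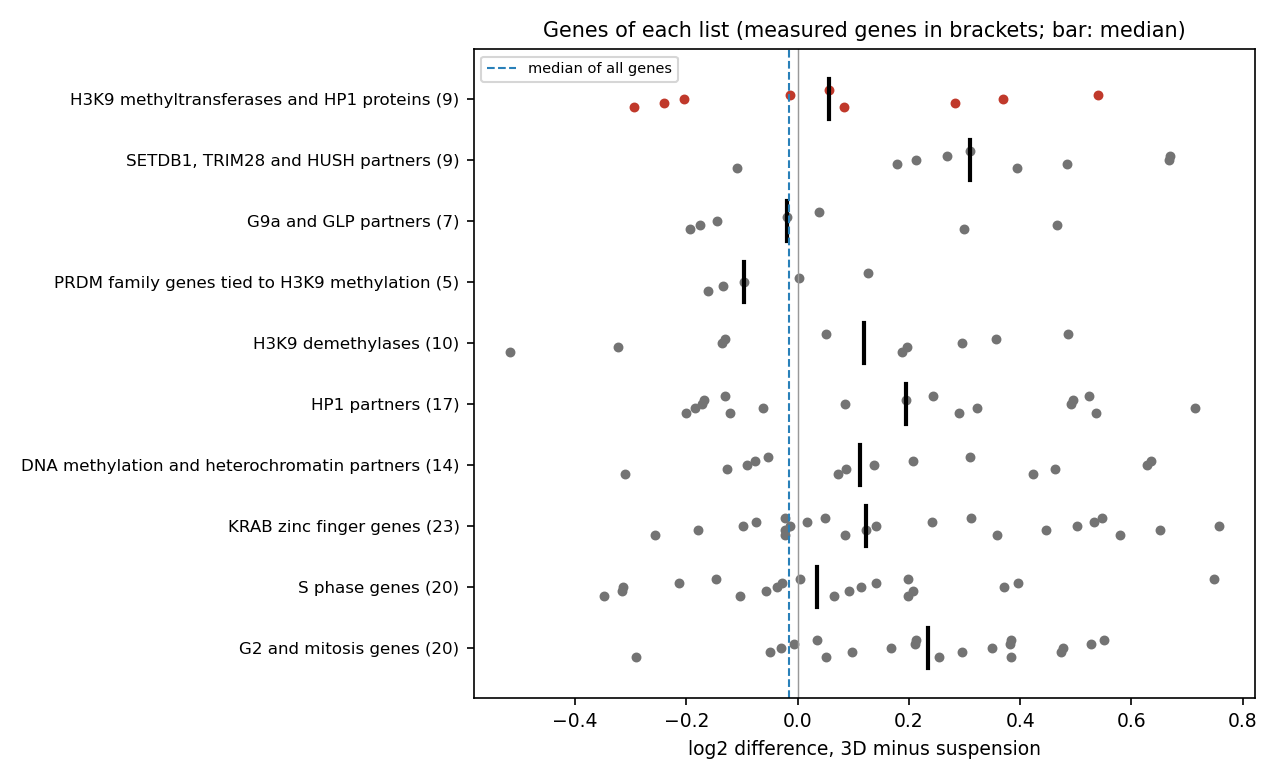
Log2 difference (3D minus suspension, horizontal axis) of every measured gene in each list, with 1 point per gene, a black bar at the list's median and a dashed line at the median of all genes. The 9 members run from -0.29 to 0.54, and the 9 partners of SETDB1, TRIM28 and HUSH have the highest list median, 0.31.

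The members' differences were set against those of genes in regions of like gene density, since all genes showed a trend with it. Genes with a neighbour count in RefSeq (17245 of 17687) were split into 5 classes of equal size by the number of protein-coding genes within 500 kb. The median difference was 0.063 in the class with the fewest neighbours and -0.13 in the class with the most. EHMT2, with 61 neighbours on chromosome 6, and SUV39H1, with 33 on chromosome X, lay in the densest class. Their differences minus that class's median were -0.17 and -0.076. SETDB1 on chromosome 1 lay in the same class, 0.21 above the median. TRIM28, with 23 neighbours on chromosome 19, had a difference minus its class's median (-0.071) of -0.17. SUV39H2 on chromosome 10 and SETDB2 on chromosome 13 both had 11 neighbours and lay 0.37 and 0.54 above the median of theirs (-0.00066). The part of gene density in the members' values was not tested beyond these medians.

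**Figure D4:**
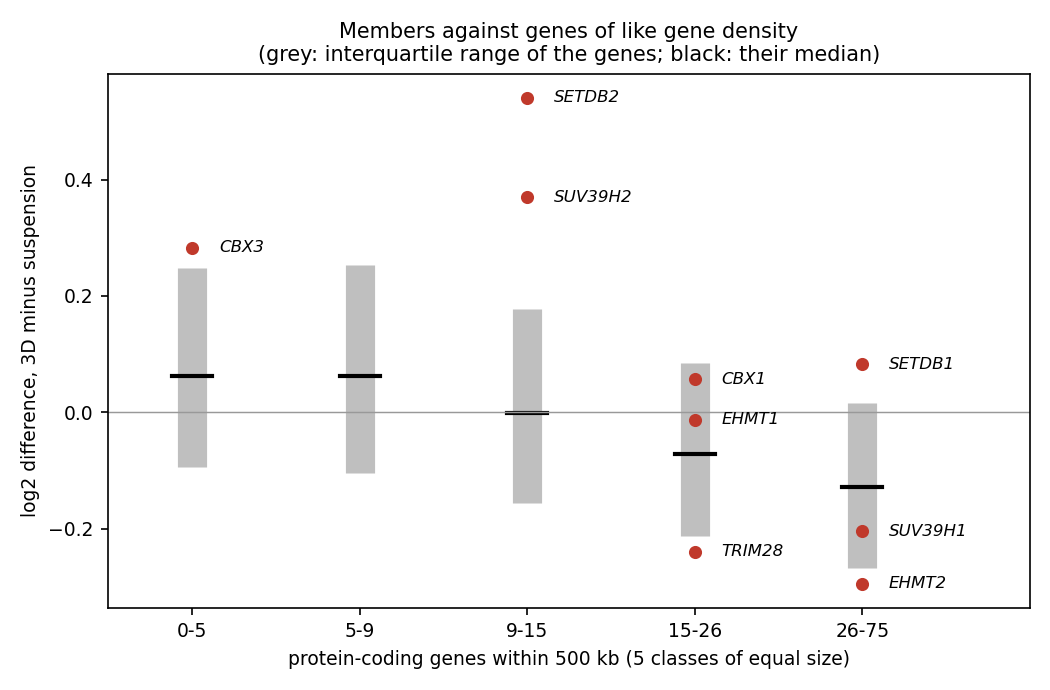
Log2 difference (3D minus suspension, vertical axis) by 5 classes of genes with rising numbers of protein-coding genes within 500 kb (horizontal axis), with grey bars for the interquartile range of the genes, black bars for their median, and red points for the members. SUV39H2, SETDB1, SETDB2 and CBX3 lie above the grey bar of their class, and EHMT2 and TRIM28 lie below it. By definition an interquartile range leaves equal shares of a class's genes above and below it, so these positions are description only.

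The nearest measured genes on the chromosome, chosen by position, were also read for each member. DCLRE1C, the gene of the DNA repair nuclease Artemis and a neighbour of SUV39H2, measured 7.65 ± 0.077 in 3D and 7.21 ± 0.098 in suspension (SD, n = 3 each). The groups did not overlap, and the difference was 0.44 ± 0.15 (SE, adjusted p 0.411, limma). HSPA14, on the other side of SUV39H2, had 0.13 ± 0.17. The neighbours of CBX3 were HNRNPA2B1, an RNA-binding protein gene (0.23 ± 0.18), and SNX10 (0.23 ± 0.20). Those of SETDB2, CAB39L and RCBTB1, had -0.044 ± 0.18 and -0.10 ± 0.25, beside 0.54 for SETDB2 itself. The 12 neighbours of the other 6 members had differences from -0.18 to 0.20, and all overlapped between groups. The highest of these was WAS, beside SUV39H1, at 0.20 ± 0.16, where SUV39H1 itself had -0.20. Of all 18 neighbours, DCLRE1C was the 1 whose groups did not overlap. Among all genes, 8.28% lay higher and 8.03% lower without overlap.

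For EHMT2 and SETDB2, the members with the widest range, the genes of most similar profile were found over the 6 arrays among 8342 genes of mean at or above 6. Likeness was the root mean square difference of the centred log2 values. Arrays where these genes and the member are high or low together therefore follow from the choice. For EHMT2 these were ERCC1 (0.057), BANF1 (0.059) and ICAM1 (0.065), beside a root mean square deviation of 0.352 for EHMT2 itself. ERCC1 measured 7.95, 7.67 and 7.03 in 3D, against 8.23, 7.60 and 7.61 in suspension. For SETDB2 they were ARID4B (0.080), TERF1 (0.083) and CCDC112 (0.089), beside 0.342 for SETDB2. ARID4B measured 7.60, 7.15 and 7.77 in 3D, against 6.91, 6.97 and 7.00 in suspension. None of these genes passed limma (adjusted p 0.406 to 0.741).

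**Figure D5:**
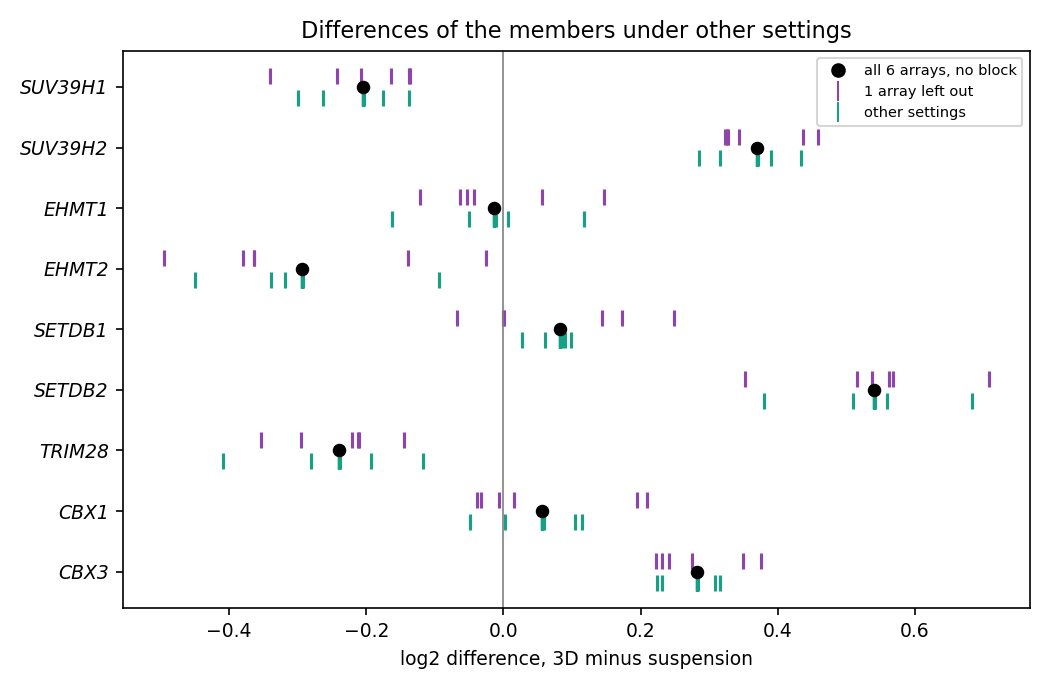
Log2 difference (3D minus suspension, horizontal axis) of each member with all 6 arrays and no block (black points), with 1 array left out (upper ticks) and under the other settings tried (lower ticks). SUV39H2 (0.28 to 0.46), SETDB2 (0.35 to 0.71) and CBX3 (0.22 to 0.38) stay above 0 in every setting shown, SUV39H1, EHMT2 and TRIM28 stay below 0, and EHMT1, SETDB1 and CBX1 lie on both sides.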

How the data were processed

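The authors deposited a log2 value for each probe set and array, made with RMA and the Transcriptome Analysis Console, per the submitters' processing notes; the genome build and the tools' versions are not given in the sources used here. In RMA, background is subtracted and arrays are put on 1 common distribution. Differences of dim probe sets can come out smaller than they are. Of 21448 probe sets, 17709 had 1 gene symbol, 0 had several and 3739 had none. For the 20 genes with more than 1 probe set, the one of highest mean was kept, leaving 17687 genes. There were 0 columns of values beyond the 6 arrays, and their number limits precision.

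Groups came from the sample titles. Limma 3.58.1 (R 4.3.3), lmFit and eBayes, was fitted over all genes with no block or filter, two-sided, with Benjamini-Hochberg adjustment, a threshold of 0.05, and 4 residual and 6.79 prior degrees of freedom. The fit was also run on simulated arrays with planted changes and independent errors. Those arrays held no replicate effect, so that run does not vouch for the calls made here. Members and lists were chosen with earlier results of these data known, so lists carry counts and medians only. Named were all members, genes from among the 4 of smallest p per list, positional neighbours and nearest profiles. Not every gene among those 4 is named for each list. Replicate numbers in the titles were checked for pairing: the correlation of deviations from the group means was 0.521 for number 1, 0.120 for number 2 and 0.337 for number 3, all over the 0.1 set for pairing. Values, errors and intervals are from the fit without the block, as planned, and those with the block are given beside them where they bear on a call. For number 2 the basis is weak, since suspension replicate 2 correlated better with 3D replicate 3 (0.230). Likewise 3D replicate 2 correlated better with suspension replicate 3 (0.149). These pairs of unlike number were also over 0.1. Alternatives were the replicate block, quantile normalization, median centring, a mean at or above 6, an intensity trend, other probe set rules and leaving out arrays. Plots used matplotlib 3.10.9 (Python 3.11.15).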

Additional observations from a re-analysis of the deposited data

How the results depend on the processing

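Of 153 values of the 9 members under 17 alternatives, 142 kept their direction and their side of the threshold, 1 came to pass and 10 changed sign. The 1 was SETDB2 (0.54) under the replicate block limited to genes of mean at or above 6. Direction could not change under the replicate block with all 6 arrays, the filter on the mean, the intensity trend or the probe set rules. These leave a member's difference unchanged, for the probe set rules because each member had 1 probe set. The count of 142 includes those values. The sign changes were all of EHMT1, SETDB1 and CBX1, whose differences were -0.013, 0.083 and 0.057. With the replicate block, EHMT1 was 0.12 without replicate 1 and 0.0062 without replicate 3 of both groups, and CBX1 was -0.048 without replicate 2. Without 3D replicate 1, SETDB1 was -0.068, and without suspension replicate 3 it was -0.00060. Without 3D replicate 3, EHMT1 was 0.057 and CBX1 was -0.039. Without suspension replicate 1, EHMT1 was 0.15 and CBX1 was -0.033, and without suspension replicate 2, CBX1 was -0.0063. With 1 array left out, the range was -0.12 to 0.15 for EHMT1, -0.068 to 0.25 for SETDB1 and -0.039 to 0.21 for CBX1. The median of the members ranged from -0.043 without 3D replicate 1 to 0.15 without suspension replicate 1, and was -0.048 with the block without replicate 2. The number of genes past limma's threshold was 0 in the fit without the block, 16 with the replicate block, and 1199 with the block for genes of mean at or above 6. With the block it was 21, 150 and 36 without replicates 1, 2 and 3 of both groups. At an unadjusted p under 0.05 the fit without the block had 1745 genes. The cause was not tested, beyond the fewer genes or samples of each fit. Of 153 list medians, 147 moved by less than 1 SD of the list's median level between arrays of a group. That bar is wide for G2 and mitosis genes, whose median ran from -0.11 to 0.55. It also took in a fall from 0.19 to 0.044 for HP1 partners and from 0.12 to 0.025 for KRAB zinc finger genes. The count of 147 is thus no measure of how stable the list medians were. Of the other 6, 3 were H3K9 demethylases (-0.037 without suspension replicate 1, and with the block 0.035 and 0.034 without replicates 1 and 3 of both groups). The other 3 were DNA methylation and heterochromatin genes (0.22 without 3D replicate 3, and with the block 0.0028 and 0.27 without replicates 2 and 3). With the block and without replicate 2, EHMT2 and TRIM28 were lower at an unadjusted p under 0.05. Detection flags were not used here, so a dim probe set cannot be told from background.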
